A study of Mus musculus with 12 samples.

Results

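The microRNA processing and silencing machinery was followed in the cortex of mice labelled miR-137/+ or miR-137 KO, and of wildtype mice. It was represented by 9 genes, taken by name from the deposited tables of 23951 rows: Drosha, Dgcr8, Xpo5, Dicer1, Tarbp2, Ago2, Tnrc6a, Tnrc6b and Tnrc6c. All 9 were found under these names and were tested by the authors in each comparison. The question was whether the genes that make microRNAs, and those that act with them, respond when miR-137, a brain-enriched microRNA, is lost.

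MicroRNAs are cut out of longer transcripts in steps. In the nucleus the RNase III enzyme Drosha and its RNA-binding partner Dgcr8, together called the Microprocessor, free a hairpin, which exportin-5 (Xpo5) carries to the cytoplasm. There Dicer1, helped by the double-stranded RNA-binding protein Tarbp2, removes the loop, and 1 strand is kept by an Argonaute protein such as Ago2. Argonaute finds its messenger RNAs by pairing with the microRNA seed, and the scaffold proteins of the Tnrc6 family (GW182 proteins) bring in the enzymes that shorten the poly(A) tail and remove the cap.

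The hairpin of the targeted gene illustrates these cuts. In the RefSeq hairpin of Mir137, at chr3:118433857-118433929 on the plus strand of GRCm38.p6, the capitals mark the 3′ mature strand. In the mature microRNA, at chr3:118433901-118433923 of the same build, the capitals mark the seed, bases 2 to 8.
Mir137 hairpin: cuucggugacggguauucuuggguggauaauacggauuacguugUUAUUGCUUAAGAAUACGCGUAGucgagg
mmu-miR-137-3p: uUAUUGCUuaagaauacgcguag

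The animals were C57BL/6 mice of 3 genotypes, wildtype (WT), miR-137/+ (Het) and miR-137 KO (KO), with 4 cortex libraries each and 12 in all. The sources used here give no age, and do not say how the allele was made or in which cells it is lost. The deposited values are the authors' RPKM (reads scaled to transcript length and sequencing depth), pooled to 1 value per genotype, so no SD can be given and the depth behind each value is unknown. Within each genotype the library titles carry the same numbering, in pairs, and do not say whether a pair shares a mouse. The labels do not tie the 4 libraries of a group to different mice, so the authors' p-values may measure technical spread only. The words rose and fell are kept for genes whose adjusted p in a deposited table of the authors is below 0.05. Differences between genotypes are given on the log2(RPKM + 1) scale, which makes changes of weakly expressed genes look smaller. Mir137 itself was listed at 0 in all 3 genotypes, so its row checks no label. Of 10 cortical excitatory neuron markers all 10 were measured, with Slc17a7, the vesicular glutamate transporter of cortex, at 574, 484 and 393 RPKM in WT, Het and KO.

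Of the 9 genes only Ago2 passed the test, and it fell in both mutant genotypes by nearly the same amount. In Het against WT 1 of 9 genes, or 11.1%, was called in the authors' deposited table, where 9% of all 14159 genes tested were called and 5.06% were called lower. In KO against WT the count was again 1 of 9, where 14.4% of 14059 genes tested were called and 7.68% were called lower. In KO against Het none of the 9 was called, where 1.87% of 14062 genes were. At an unadjusted p below 0.05 in the authors' deposited tables the counts were 1, 3 and 2 of the 9 genes in these comparisons, beside 19.5%, 26.5% and 9.81% of all genes tested, and no other tool could be run on pooled values. The share of machinery genes called was thus close to that of all genes. The Het and KO comparisons share the WT libraries, so the pair of falls are not independent measurements.

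**Figure D1:**
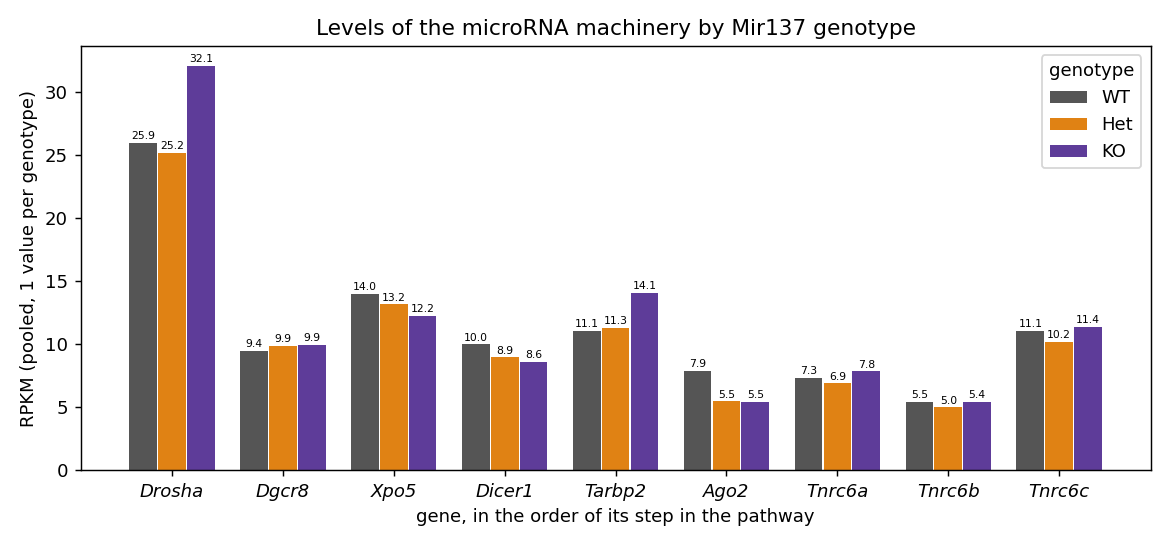
Bars give the authors' pooled RPKM (y axis, from 0) of the 9 machinery genes (x axis, in pathway order) in WT, Het and KO, without error bars because 1 value per genotype was deposited. Ago2 stands at 7.87 RPKM in WT and near 5.5 in both mutants, and Drosha and Tarbp2 are highest in KO.

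The levels themselves spanned a narrow range. Within WT the order ran from Drosha at 25.9 RPKM through Xpo5 at 14.0, Tarbp2 and Tnrc6c both at 11.1, Dicer1 at 9.98, Dgcr8 at 9.44, Ago2 at 7.87 and Tnrc6a at 7.30 to Tnrc6b at 5.45. Drosha was 4.76 times as high as Tnrc6b, and 75.2% of tested genes were lower than Drosha in WT. Tarbp2 and Tnrc6c cannot be ranked at these values, and no spread was available to rank the other neighbours. In both mutants Ago2 went from the seventh to the eighth place, below Tnrc6a. A genotype's values for these 9 genes differed by at most 0.683% between the tables that hold it.

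Neither Microprocessor gene passed the test in any comparison. Drosha, the nuclear RNase III enzyme, stood at 25.9 RPKM in WT and 25.2 in Het (log2 difference -0.04, adjusted p 0.921 from the authors' deposited table). In KO it stood at 32.1 RPKM, a log2 difference of 0.29 from WT (unadjusted p 0.0119, adjusted p 0.0714 from the authors' deposited table). Against Het the authors' deposited table gave Drosha 32.2 against 25.4 RPKM, a log2 difference of 0.33 (unadjusted p 0.00765, adjusted p 0.194). Drosha was thus highest in KO, with no call in either comparison, and these comparisons share the KO libraries.

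Dgcr8, which anchors the hairpin for Drosha, had 9.44 RPKM in WT, 9.87 in Het and 9.92 in KO. Its log2 differences from WT were 0.06 in each mutant (adjusted p 0.917 and 0.860 from the authors' deposited tables). Dgcr8 messenger RNA carries hairpins that the Microprocessor itself cuts, so its level is known as a readout of Microprocessor activity. The ratio of Drosha to Dgcr8 RPKM was 2.75 in WT, 2.55 in Het and 3.23 in KO, a description with no test. Of the annotated Dgcr8 exon bases 10.7% are shared with Trmt2a on the other strand, and the library kit does not mark strand, so reads there cannot be assigned. Trmt2a, a tRNA methyltransferase, was listed at 9.98, 10.7 and 10.5 RPKM in WT, Het and KO.

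Xpo5, the export receptor, was the 1 nuclear transport gene among the 9. Its values were 14.0 RPKM in WT, 13.2 in Het and 12.2 in KO, the lowest in KO. The log2 differences from WT were -0.08 in Het and -0.18 in KO (adjusted p 0.814 and 0.354 from the authors' deposited tables). Between KO and Het the difference for Xpo5 was -0.10 (adjusted p 0.930 from the authors' deposited table).

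Neither dicing gene passed the test in any comparison. Dicer1, the cytoplasmic RNase III enzyme, had 9.98 RPKM in WT, 8.95 in Het and 8.62 in KO, with log2 differences from WT of -0.14 and -0.19 (adjusted p 0.50 and 0.262 from the authors' deposited tables). Tarbp2, its RNA-binding partner, had 11.1 RPKM in WT, 11.3 in Het and 14.1 in KO. For Tarbp2 the log2 difference of KO from WT was 0.32 (unadjusted p 0.0234, adjusted p 0.114 from the authors' deposited table) and that of Het from WT 0.02 (adjusted p 0.968). Against Het, KO was higher for Tarbp2 by a log2 difference of 0.29 (unadjusted p 0.0474, adjusted p 0.498 from the authors' deposited table). The ratio of Dicer1 to Tarbp2 RPKM was 0.901 in WT, 0.792 in Het and 0.612 in KO, a description with no test.

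**Figure D2:**
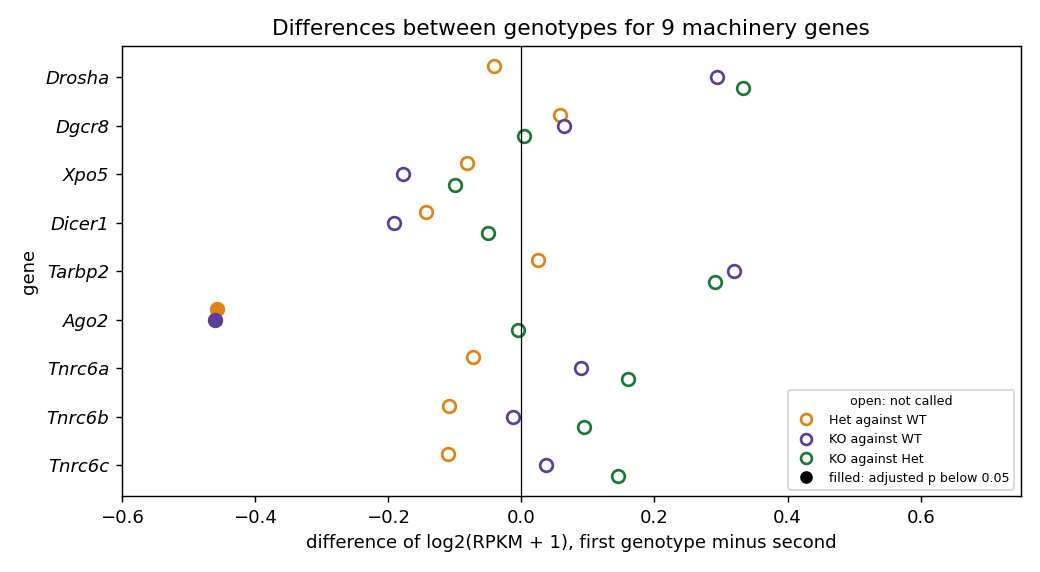
Points give the difference of log2(RPKM + 1) on the x axis for the 9 genes on the y axis, with 1 colour per comparison, filled where the adjusted p is below 0.05 and open otherwise. Ago2 alone has filled points, at -0.46 for Het and for KO against WT, and its KO against Het point lies at 0.00.

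Ago2, the Argonaute that can itself cut a fully paired target, fell from 7.87 RPKM in WT to 5.46 in Het in the authors' deposited table (adjusted p 0.00135). The RPKM of Ago2 fell by 30.6%, 1.44-fold lower, and with the pseudocount the log2 difference was -0.46. In KO the authors' deposited table put Ago2 at 5.45 RPKM against 7.88, where it fell by 30.8% (1.45-fold lower, adjusted p 0.000987), with a log2 difference of -0.46 after the pseudocount. The unadjusted p was 5e-05 both times, the smallest in the authors' deposited tables, and 525 genes in Het and 712 in KO had it, Ago2 included. Between the mutants Ago2 stood at 5.48 RPKM in KO and 5.50 in Het, a ratio of 0.996 (adjusted p 0.998 from the authors' deposited table). Het and KO thus had similar pooled Ago2 levels, though no interval for that difference can be given. In bulk tissue less Ago2 RNA per cell and fewer cells that express it cannot be told apart. Of the annotated Ago2 exon bases 1.56% are shared with Chrac1, a chromatin remodelling subunit gene on the other strand, listed at 16.9, 18.9 and 19.1 RPKM in WT, Het and KO.

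Other features of these libraries also differed between the genotypes. Of 15 striatal projection neuron markers 15 rose in Het and 15 in KO in the authors' deposited tables, and their summed level went from 171 RPKM in WT to 687 and 726. Choroid plexus markers fell in 8 of 9 measured members in each mutant, with summed levels of 2079 RPKM in WT, 295 in Het and 90.8 in KO. No marker of either list was listed at 0 in any genotype. Immature neuron markers rose in 5 of 6 members in Het and 6 of 6 in KO, and dividing progenitor markers in 5 of 6 and 3 of 6. Meningeal fibroblast markers fell in 4 of 6 members in Het and 2 of 6 in KO. Oligodendrocyte markers rose in 2 of 6 members in Het and fell in 2 of 6 in KO. Of 6 microglia markers 3 rose and 1 fell in each mutant. Of 6 endothelium markers 1 rose and 2 fell in Het, and 1 rose and 1 fell in KO. Of 10 cortical excitatory neuron markers 3 rose and 1 fell in Het, and 2 rose and 1 fell in KO. Inhibitory neuron markers fell in 1 of 6 members in each mutant. Astrocyte markers rose in 1 of 6 members in Het, and 0 were called in KO. The part of these cell types in the Ago2 result was not tested.

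Transcript length moved with the differences as well. With genes of at least 1 RPKM in 10 bins by their longest GENCODE transcript, the median log2 difference in Het against WT was 0.14 for the shortest transcripts and -0.10 for the longest, and in KO against WT 0.17 and -0.09. The Ago2 transcript is 13800 nt long and falls in the longest bin, where 11.1% of genes were called lower in Het and 14.8% in KO. Ago2 lay 0.36 below the median of that bin in Het and 0.37 below it in KO, and 4.41% and 5.05% of the bin's genes had a lower value than Ago2. Dicer1 and the 3 Tnrc6 genes are in the same bin, and in Het they lay within 0.05 of its median. In KO the Tnrc6 genes lay 0.08 to 0.18 above the bin's median and Dicer1 -0.10 from it. Drosha and Tarbp2 lay above the medians of their own length bins in KO by 0.32 and 0.27.

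**Figure D3:**
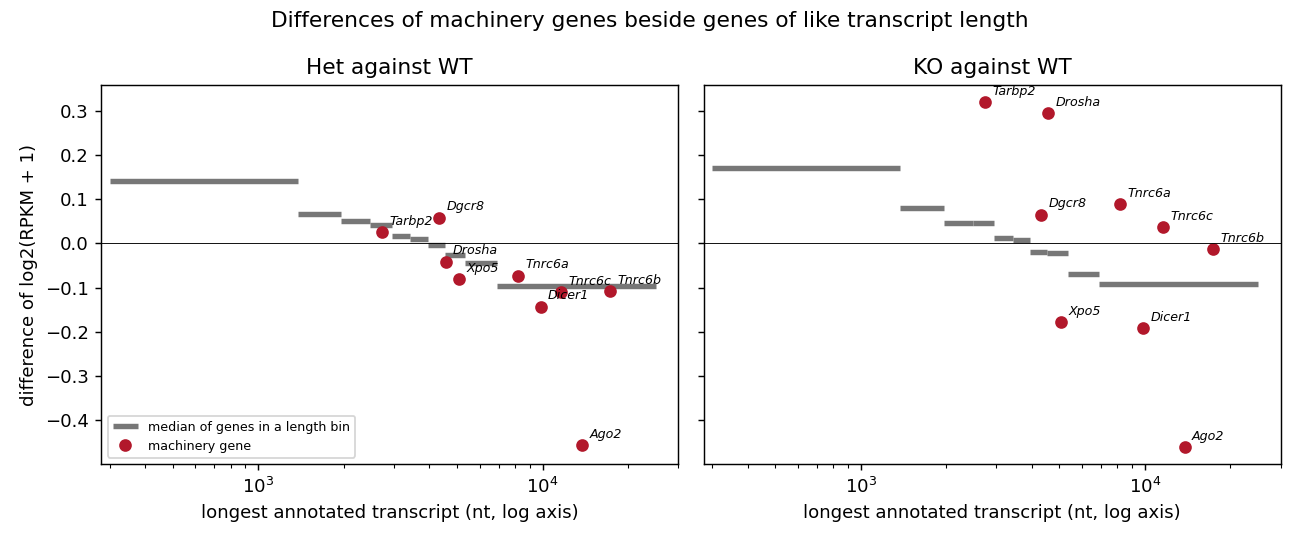
Red points give the 9 genes by longest annotated transcript (x axis, nt, log axis) and difference of log2(RPKM + 1) (y axis) for Het and KO against WT, and grey lines the median of all genes in each of 10 length bins, with the outer bins drawn only to the edge of the plot. Ago2 is the lowest point in both panels, at -0.46 where the bin's medians are -0.10 and -0.09.

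None of the scaffold genes passed the test. Tnrc6a, the founding GW182 gene, stood at 7.30 RPKM in WT, 6.89 in Het and 7.84 in KO (adjusted p 0.820 and 0.670 against WT from the authors' deposited tables). Tnrc6b had 5.45, 4.98 and 5.40 RPKM (adjusted p 0.629 and 0.967 from the authors' deposited tables). For Tnrc6c the values were 11.1, 10.2 and 11.4 RPKM (adjusted p 0.663 and 0.887 from the authors' deposited tables). All 3 scaffold genes were lowest in Het, and their KO against Het log2 differences were 0.16, 0.09 and 0.15 for Tnrc6a, Tnrc6b and Tnrc6c (adjusted p 0.769, 0.907 and 0.813 from the authors' deposited table). Tnrc6c made up 46.5% of the summed Tnrc6 RPKM in WT, 46.2% in Het and 46.3% in KO. The sum of the family was 23.8 RPKM in WT, 22.1 in Het and 24.6 in KO, and the ratio of Ago2 to that sum went from 0.330 in WT to 0.248 and 0.221.

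Ago2 has 3 paralogs that also bind microRNAs, Ago1, Ago3 and Ago4, and none of them was called in any comparison. Ago1, the most abundant Argonaute here, had 20.5 RPKM in WT, 22.5 in Het and 23.7 in KO (adjusted p 0.610 and 0.261 against WT from the authors' deposited tables). Ago3 stood at 1.88, 1.48 and 1.52 RPKM (unadjusted p 0.0473 and 0.0636, adjusted p 0.247 and 0.222 from the authors' deposited tables). Ago4 had 1.98, 2.14 and 2.65 RPKM, with an adjusted p of 0.0551 for KO against WT in the authors' deposited table. The summed RPKM of Ago1 to Ago4 was 32.3 in WT, 31.5 in Het and 33.3 in KO. Within that sum Ago2 made up 24.4% in WT, 17.3% in Het and 16.4% in KO, and Ago1 63.6%, 71.2% and 71.1%. These shares are descriptions of pooled values with no test.

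Over the 9 genes together the median log2 difference was -0.08 in Het against WT, with 7 of 9 below 0, beside 0.01 over all genes tested. The median was 0.04 in KO against WT, with 5 above 0 and 4 below, beside 0.01 over all genes tested. In KO against Het it was 0.09, with 6 above 0 and 3 below, beside 0.00. The size of the difference without its sign had a median of 0.08 in Het, 0.18 in KO and 0.10 in KO against Het, beside 0.13, 0.16 and 0.11 over all genes tested.

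How large a change could be called at these levels is seen from the other genes between 4.98 and 32.2 RPKM. In Het against WT the authors' deposited table called 0.233% of 858 such genes with a log2 difference of 0.2 to 0.3 in either direction, 31.4% of 424 genes at 0.3 to 0.4 and 70.6% of 187 genes at 0.4 to 0.5. For KO against WT the shares were 0.166%, 40.9% and 76.8% in the authors' deposited table. In KO against Het 1 of 351 genes at 0.3 to 0.4 was called in the authors' deposited table, and 32.8% at 0.4 to 0.5. The differences of Drosha and Tarbp2 in KO lie in or below the range where calls begin, so their missing calls do not show that they stayed level.

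The wider pathway was read from 79 further genes in 8 lists, of which 75 reached 1 RPKM in either genotype. In Het against WT 1 of the 75 was called, or 1.33%, beside the 9% of all genes tested. It was Fkbp4, a co-chaperone of Hsp90, the chaperone that helps load Argonaute, and it rose from 57.2 to 73.1 RPKM (adjusted p 0.0159 from the authors' deposited table). The median log2 difference of the 75 genes was 0.02, beside 0.01 over all genes tested. The lists of nuclear processing (11 genes), export (2), Argonaute paralogs (3), deadenylation (16), decapping and P-bodies (17), tailing and turnover (8) and RNA-binding modulators (7) held no call in Het, and 5 of the 75 genes had an unadjusted p below 0.05 in the authors' deposited table, beside 19.5% of all genes tested.

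In KO against WT 4 of the 75 genes were called, or 5.33%, beside 14.4% of all genes tested, with 2 higher and 2 lower. At an unadjusted p below 0.05 in the authors' deposited table there were 10 of the 75, beside 26.5% of all genes tested. Fkbp4 rose again, from 57.2 to 75.3 RPKM (adjusted p 0.0130 from the authors' deposited table), the 1 call among 11 dicing and loading genes. Of these 11 genes 4, Fkbp4 included, had an unadjusted p below 0.05 in the authors' deposited table. Their log2 differences were above 0 in 10 and below 0 in 1. Of 11 nuclear processing genes, Hnrnpa1, an RNA-binding protein that remodels some microRNA hairpins, rose from 61.6 to 95.7 RPKM (adjusted p 0.0393 from the authors' deposited table). Hnrnpa1 is known to have many processed pseudogenes, so its count is uncertain. From the same list Adarb1, which edits adenosine to inosine in double-stranded RNA, fell from 24.3 to 18.1 RPKM (adjusted p 0.0103 from the authors' deposited table). Xrn1, the exonuclease that degrades decapped messenger RNA, fell from 3.66 to 2.73 RPKM (adjusted p 0.0460 from the authors' deposited table), the 1 call among 17 decapping and P-body genes. With the adjustment made over the 3 tables together, Hnrnpa1 and Xrn1 were no longer called (adjusted p 0.0597 and 0.0696), and Fkbp4 and Adarb1 were. The 16 deadenylation genes held no call, with log2 differences from -0.21 to 0.15, nor did the 8 tailing and turnover genes or the 7 RNA-binding modulators.

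In KO against Het none of the 75 genes was called in the authors' deposited table, beside 1.87% of all genes tested, a share at which few calls would fall among 75 genes. At an unadjusted p below 0.05 there were 2, beside 9.81% of all genes tested. A gene below 1 RPKM, chosen after its values were seen, was Lin28b, which blocks the processing of let-7 microRNAs. Lin28b stood at 0.784 RPKM in KO against 0.366 in Het (adjusted p 0.0294 from the authors' deposited table). Against WT, at 0.552 RPKM, the KO value of Lin28b was 0.782 (adjusted p 0.169 from the authors' deposited table), and in Het it was 0.364 RPKM and not tested. Its relative Lin28a stood at no more than 0.0610 RPKM in any genotype.

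**Figure D4:**
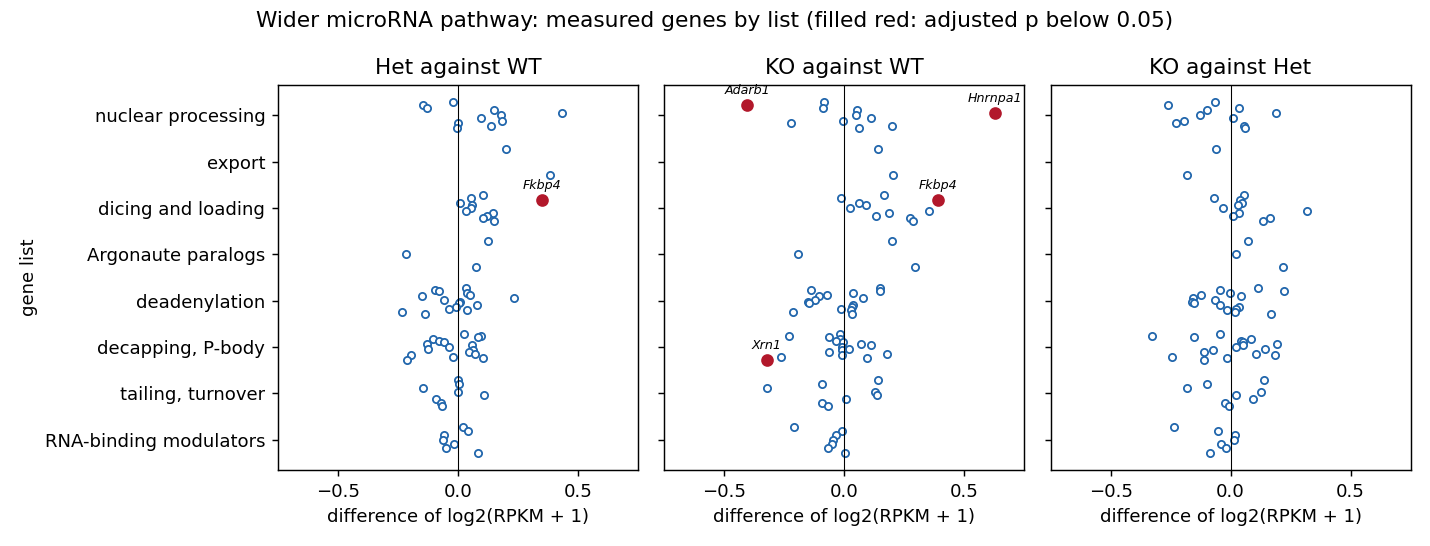
Each point is 1 of 75 measured genes of the wider pathway, placed by its difference of log2(RPKM + 1) (x axis) in its list (y axis), in 3 panels for the 3 comparisons; filled red points have an adjusted p below 0.05. Fkbp4 is filled in Het, Fkbp4, Hnrnpa1, Adarb1 and Xrn1 are filled in KO, and no point is filled in KO against Het.

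A seed match for miR-137 was found in 1 of the 9 machinery genes, too few to compare its frequency with that in other genes. The longest annotated 3′ UTR of each gene in GENCODE M21 was searched for AGCAATA, the match to seed bases 2 to 8, on the transcript strand. Matches to fewer seed bases were not searched. Of the 9 genes 1, Tnrc6b, held a match (11.1%), where 10.9% of 12398 expressed genes did. These shares are not matched for length, and the median 3′ UTR of the expressed genes was 1244 nt. Among genes with a 3′ UTR within 20% of a member's length, the share with a match ran from 1.36% for Drosha to 51.7% for Ago2. The Tnrc6b match starts at base 6100 of a 3′ UTR of 11609 nt, and 49.0% of 49 genes of like length held at least 1. The window is shown because it is the single match found, with the seed match in capitals.
Tnrc6b 3′ UTR window: ctccagttgtcAGCAATAgtattcttatt
The base after the match is not an A, so it is not the longer match of 8 bases. The 3′ UTR of Ago2, at 11064 nt, held no such match, where 51.7% of 58 genes of like length did, and neither did that of Dicer1 at 3851 nt. Tnrc6b was not called in any comparison.

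By their differences from WT in Het and in KO, the genes of at least 5 RPKM nearest to Ago2 were Gabrb1, a GABA-A receptor subunit, and Man1a, a Golgi mannosidase. Their distances were 0.0204 and 0.0213 on the log2 scale, over 9154 genes and 3 genotypes. Gabrb1 stood at 14.5, 10.4 and 10.4 RPKM in WT, Het and KO, and Man1a at 13.7, 9.68 and 9.85. In all 65 genes, these included, lay within 0.1 of Ago2.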

How the data were processed

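RNA from the cortex of 12 libraries, 4 per genotype, was profiled. Libraries were made with an Illumina TruSeq RNA kit and sequenced from both ends, per the labels' protocols. Cuffdiff 2.2.1, TopHat2 2.0.13, CASAVA 1.4 and the build mm9 are named in the submitters' processing notes; which gene annotation was used is not given in the sources used here. The authors deposited 3 pairwise tables with 1 RPKM value per genotype and gene. Per the file headers each gene also has the authors' p-value and q-value, and genes with a p of 1 were taken as untested. Folds were recomputed, because the deposited ones include spreadsheet errors. No column lacked a genotype (0 unmapped).

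Log2 differences were computed with a pseudocount of 1 RPKM, and calls are the authors' q below 0.05. No test was run here, since pooled values carry no spread. The 9 members, the gene lists and the alternatives were chosen with earlier results of these data known. Named pathway genes are the Argonaute paralogs and up to 4 called genes per list and comparison, by smallest q. For each called member the 2 nearest genes of at least 5 RPKM are named. Lengths and 3′ UTRs came from GENCODE M21 (GRCm38), joined by name, with a length for 95.3% of the tested genes of at least 1 RPKM and a 3′ UTR for 90.8% of genes of at least 1 RPKM in KO against WT. Exon overlaps between genes also come from that annotation, and no gene coordinates are printed from it. The alternatives were other thresholds, adjustments, pseudocounts, minimum levels and centring. Of the steps, only the fold, without its pseudocount, and the adjustment of p-values were tested on simulated data. Python 3.11.15, numpy 2.4.6, pandas 2.3.3 and matplotlib 3.10.9 were used.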

Additional observations from a re-analysis of the deposited data

How the results depend on the processing

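Ago2 stayed the 1 gene called among the 9 in Het and in KO against WT with a q threshold of 0.01, with adjustment over the 3 tables together and with adjustment over genes of at least 1 RPKM only. With a minimum absolute log2 difference of 0.5 the count was 0 in both, since the pseudocount of 1 holds Ago2 at -0.46; with a pseudocount of 0.01 Ago2 stood at -0.53. Of the 75 wider pathway genes, 0 were called at a q of 0.01 in Het and in KO. With the minimum difference 0 were called in Het and 1 in KO, and 2 were called in KO with the joint adjustment, which lost Hnrnpa1 and Xrn1. With no minimum level 1 gene, Lin28b, was called in KO against Het. With the shortest annotated 3′ UTR, 0 of the 9 genes held a seed match, beside 5.94% of 12398 expressed genes. Other pseudocounts and recentring turned the sign of 0 of 81 differences of single machinery genes. The other alternatives kept their counts within 1.5 times. Libraries could not be left out, as the values are pooled. No paired analysis was possible for the same reason. The library titles carry replicate numbers, but the deposited columns do not.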

Other observations

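Rows named after single microRNAs were also present, though these libraries were not made to capture mature microRNAs. Whether each named row is a microRNA made by this machinery was not checked. Of 1072 such rows, 903 were listed at 0 in both Het and WT and 951 in both KO and WT. In Het against WT the authors tested 37 of these rows, and 0 were called in the authors' deposited table or had an unadjusted p below 0.05. In KO against WT 28 rows were tested. Of these, 5 had an unadjusted p below 0.05, beside 26.5% of all genes tested, and 3 were called in the authors' deposited table, beside 14.4%. All 3 were listed at 0 in KO: Mir6236 at 1717 RPKM in WT (adjusted p 0.000987 from the authors' deposited table), Mir568 at 294 RPKM (adjusted p 0.00386) and Mir8091 at 27.4 RPKM (adjusted p 0.0318). Mir6236 and Mir568 were also called in KO against Het in the authors' deposited table, from 2136 and 316 RPKM to a listed 0 (adjusted p 0.00517 and 0.00879). They were the 2 calls among 29 rows tested there, beside 1.87% of all genes tested. At an unadjusted p below 0.05 there were 6 rows, beside 9.81% of all genes tested. Mir5113, annotated inside an exon of Tnrc6b, was listed at 25.4 RPKM in Het and at 0 in WT and KO. These names were chosen after their values were seen. RPKM divides by a very short length for such rows, and an exact 0 can be a failed estimate.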
